A study of Mus musculus with 219 samples.

Results

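Single blastomeres of the mouse 2-cell embryo were sorted here by the share of their RNA-seq counts that fell in the mitochondrially encoded genes. Blastomeres with at least 9500 genes counted were kept, which left out 7 of those in the count table. Those with a share over 2% were called high, and they numbered 11, or 9.32% of the blastomeres kept, among 194 libraries of blastomeres and blastocysts in all. Those at or below 2% were called ordinary, and they numbered 36 after contralateral, 43 after isolateral and 28 after equatorial ICSI (intracytoplasmic sperm injection). The members were thus chosen by their measured mitochondrial counts, and the classes are not groups that the labels give. The embryos had the genotype B6C3F1xCD1, from oocytes of superovulated young adult B6C3F1 females that were stripped of cumulus cells and injected with heads of frozen-thawed sperm of CD1 males. The sperm head was placed contralateral (Co), isolateral (Is) or equatorial (Eq) to the meiotic spindle, and the embryos were split by micromanipulation within hours of the first cleavage. Each blastomere gave 1 library, on plate 1 or plate 2. In the names used here, Co 8b is sister b of embryo 8 of the contralateral group. The labels do not tie embryos to oocyte donors, so embryos that share a mother cannot be told apart from embryos that do not.

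Mouse oocytes carry a very large stock of mitochondria with copies of a small circular genome, and these are passed to the blastomeres by division of the cytoplasm, without growth, during the first cleavages. That genome codes for 13 proteins of the respiratory chain and ATP synthase, while every other protein of the organelle is encoded in the nucleus and imported. The 2-cell stage of the mouse is also the time at which stored maternal transcripts are degraded and the embryonic genome is switched on. The share of mitochondrially encoded counts is widely used to screen single-cell libraries, because it rises when cytoplasmic RNA is lost as well as when mitochondrial RNA is abundant. Total RNA was not measured separately in these libraries, so more mitochondrial RNA and less nuclear-encoded RNA in a blastomere cannot be told apart.

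The count table held 13 mitochondrially encoded genes, all of them protein-coding, and none of the 2 ribosomal or 22 transfer RNA genes that the annotation places on this chromosome. Several of these genes overlap, and a read that covers an overlap can touch both genes. The longer overlap printed here is 43 bases, chrM:7927-7969, shared by mt-Atp8 and mt-Atp6, and the shorter one is 7 bases, chrM:10167-10173, shared by mt-Nd4l and mt-Nd4 (GRCm38, plus strand, GENCODE M21 transcripts). They are shown because reads that cover them can touch both genes. The effect on the counts of these 4 genes was not tested. Capitals mark the shared bases and lower case the 15 bases on each side.
mt-Atp8 and mt-Atp6: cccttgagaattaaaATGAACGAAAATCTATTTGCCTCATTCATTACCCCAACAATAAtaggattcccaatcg
mt-Nd4l and mt-Nd4: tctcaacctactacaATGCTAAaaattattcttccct

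In the 11 high blastomeres the share was 2.02% in Co 47b, 2.04% in Co 51a, 2.06% in Co 8a, 2.12% in Eq 39b, 2.13% in Co 9b, 2.20% in Is 27b, 2.25% in Co 52a, 2.54% in Is 56b, 2.64% in Co 50b, 2.66% in Co 47a and 4.00% in Co 8b. Co 8b stood apart from the other 10, whose mean was 2.27% ± 0.250 (SD). In the ordinary blastomeres the share ran from 0.756% to 1.996%, with a median of 1.42%. The limit cut through a continuous run of values. The ordinary blastomeres nearest to it had 1.953% (Co 10b), 1.967% (Co 9a) and 1.996% (Is 18a), and the high ones nearest to it 2.02% (Co 47b) and 2.04% (Co 51a). In the blastocysts of the same series the share was 0.912% to 1.81% in 38 twins and 0.804% to 3.24% in 31 intact embryos.

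The share combines a numerator and a denominator, and both differed between the classes. Mitochondrially encoded counts ran from 15952 to 35082 in high blastomeres (median 25261) and from 6217 to 34686 in ordinary ones (median 20006). Nuclear-encoded counts had a median of 1127094 in high and 1337720 in ordinary blastomeres. Co 8b had 17591 mitochondrial counts, fewer than the ordinary median, and 421735 nuclear counts, the lowest of the high class. High blastomeres had 10111 to 11974 genes counted (median 11503) and ordinary ones 9973 to 13228 (median 12066). The defining genes of the cell were present in both classes, since 7 of 8 blastomere markers (oocyte and 2-cell genes such as Gdf9, Bmp15 and Zp3) were counted in every library. Their summed level was 3328 to 7190 CPM in high and 2892 to 5293 CPM in ordinary blastomeres, where CPM is counts per 1000000 nuclear counts after TMM scaling. Of 14 cumulus and granulosa cell markers, Inha and Amh were at 0 in all libraries and Fshr, Ptx3 and Dcn also in all high ones. Tnfaip6 went the other way, counted in 9 of 11 high and 47.7% of ordinary blastomeres, at a mean of 5.58 CPM. The summed level of the 14 was 10.3 to 125.1 CPM in high (median 47.6) and 0 to 110.7 CPM in ordinary blastomeres (median 35.04). Of 6 sperm markers Tnp2 was at 0 throughout, and the sum reached 29.2 CPM in high and 59.8 CPM in ordinary blastomeres.

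All 13 mitochondrially encoded genes had a higher median CPM of all counts in the high class. The rule sets their sum and so favours this for each gene, and it carries no test. Cytochrome b of complex III (mt-Cytb) ran from 2390 to 5964 CPM in high blastomeres (median 3584) and from 772 to 3414 CPM in ordinary ones (median 2093). The ATP synthase subunit mt-Atp6 had medians of 2837 and 1688 CPM, and the cytochrome oxidase subunit mt-Co3 of 1992 and 1326 CPM. The 3 genes that mark the class thus differed by 1.71, 1.68 and 1.502 times. Over the 13 genes the ratio of the medians lay between 1.502 for mt-Co3 and 1.89 for mt-Atp8, so no gene carried the class alone. Without Co 8b the corresponding ratios were 1.49 and 1.87.

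The composition of the mitochondrial counts differed less than their amount. The complex I subunits mt-Nd1, mt-Nd4, mt-Nd5 and mt-Nd6 took a median of 8.60%, 10.5%, 7.71% and 2.32% of the mitochondrial counts in high and 8.64%, 10.7%, 8.03% and 2.36% in ordinary blastomeres. mt-Co1, the catalytic subunit of cytochrome oxidase, took 12.97% in high and 14.6% in ordinary blastomeres, whereas mt-Cytb took 16.2% and 14.6%. Each class spanned the median of the other for all of these genes. Per base of exon, mt-Atp6 was the most covered in both classes, with a median of 4.73 counts per base in high and 3.52 in ordinary blastomeres. mt-Nd5, the longest of the 13, was the least covered, with 1.03 and 0.862 counts per base.

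High blastomeres were found at all 3 ICSI sites and on both plates. There were 8 of 44 contralateral (18.2%), 2 of 45 isolateral (4.44%) and 1 of 29 equatorial blastomeres (3.45%). The 8 contralateral ones came from 6 embryos. Within plate 1 the counts were 6 of 37 contralateral, 1 of 28 isolateral and 1 of 24 equatorial, and within plate 2 they were 2 of 7, 1 of 17 and 0 of 5. The median share of the ordinary blastomeres was 1.43% after contralateral, 1.495% after isolateral and 1.23% after equatorial ICSI. Each well row held blastomeres of 1 site. Of the contralateral rows of plate 1, row B held 3 high of 10 and row J 3 of 9, while row A held 0 of 8 and row C 0 of 10, and the medians of all blastomeres in the rows were 1.91%, 1.68%, 1.41% and 1.30%. Row A of plate 2, also contralateral, held 2 of 7. The share thus varied between rows of the same site, and the part of the well row in the difference between sites was not tested.

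**Figure D1:**
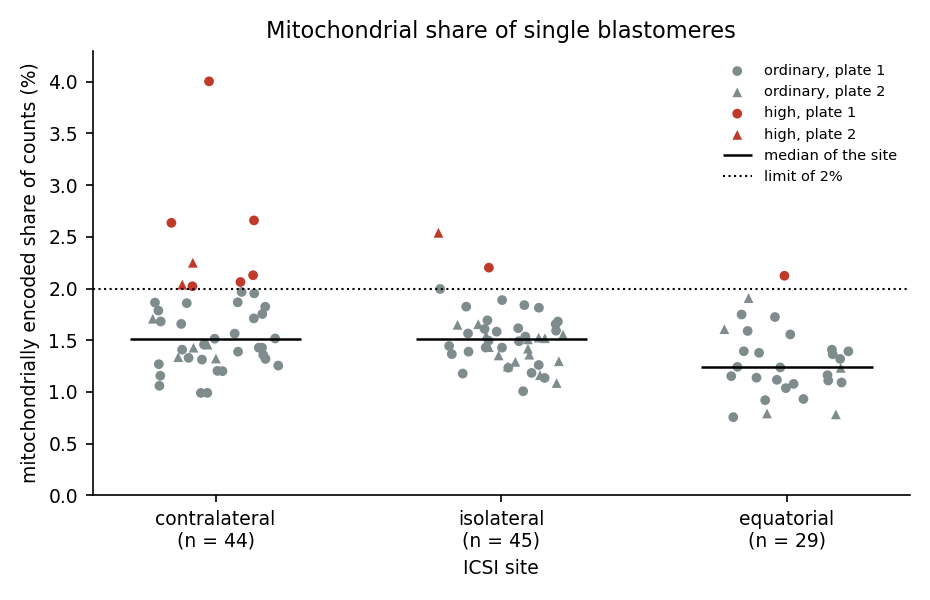
Mitochondrially encoded share of counts (y axis, %) in each blastomere kept, by ICSI site (x axis), with high blastomeres in red, ordinary ones in grey, plate 1 as circles and plate 2 as triangles, and a bar at each site's median. Of the 11 points above the dotted 2% limit, 8 are contralateral, and Co 8b at 4.00% stands above the others.

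The 11 high blastomeres came from 9 embryos, and 4 of them had a high sister, 5 an ordinary one and 2 a sister with too few genes counted to be classed. In Co 8 (4.00% and 2.06%) and Co 47 (2.66% and 2.02%) both sisters were high. In 5 embryos the sister was ordinary, with 1.68% in Co 50a against 2.64%, 1.53% in Is 56a against 2.54%, 1.71% in Co 52b against 2.25%, 1.97% in Co 9a against 2.13% and 1.14% in Eq 39a against 2.12%. In the last 2 embryos the sister had fewer than 9500 genes counted, with 1.26% in Is 27a and 1.28% in Co 51b. Of the 5 ordinary sisters, 4 lay above the ordinary median and the equatorial one below it. The sisters differed by a median of 0.954 percentage points in the 7 embryos with a high blastomere and both sisters kept, and by 0.173 in the 48 embryos without one, a contrast that the choice of the embryos by their highest share favours.

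In 4 of the 5 discordant embryos the high sister had more mitochondrial counts, and in 4 of 5 it had fewer nuclear counts. In Co 50 the mitochondrial counts were 21005 in the high and 14297 in the ordinary sister, with 775956 and 835918 nuclear counts. In Is 56 the mitochondrial counts were 30387 and 30730, with 1166508 and 1983817 nuclear counts. In counts, the first pair thus differed mainly in the numerator and the second in the denominator. Counts also follow the depth of a library, which was 1196895 counts in Is 56b and 2014547 in Is 56a. They therefore do not tell which kind of RNA differed. Co 9 differed little in either, with 25261 and 23148 mitochondrial and 1161259 and 1153553 nuclear counts. In Eq 39 the high sister had 1.17 times the mitochondrial and 0.620 times the nuclear counts of its sister.

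Across all 55 embryos with both sisters kept, the share of one sister went with that of the other. Pearson's r was 0.421 (permutation test, 2-sided, p = 0.00116) and Spearman's rho 0.518 (p = 6e-05), with adjusted p of 0.00116 and 0.00012 over these 2 relations. Sister letters have no order, so each pair entered in both orders. Without Co 8 and Co 47, the pairs farthest from the median, r was 0.370 and rho 0.470 over 53 embryos. Within plate 1 r was 0.441 and rho 0.524 (42 embryos). The permutations over the 55 embryos re-paired blastomeres across all sites and plates. After centring on site and plate r was 0.354 (permutation test, p = 0.0065) and rho 0.438 (p = 0.00086). The relation thus did not rest on the embryos with 2 high blastomeres, and it kept its direction within plate and site. Sisters lay in adjacent wells of 1 row, so a shared embryo and a shared place on the plate cannot be told apart. The share is also the value that set the classes, but all kept pairs entered whatever their class.

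**Figure D2:**
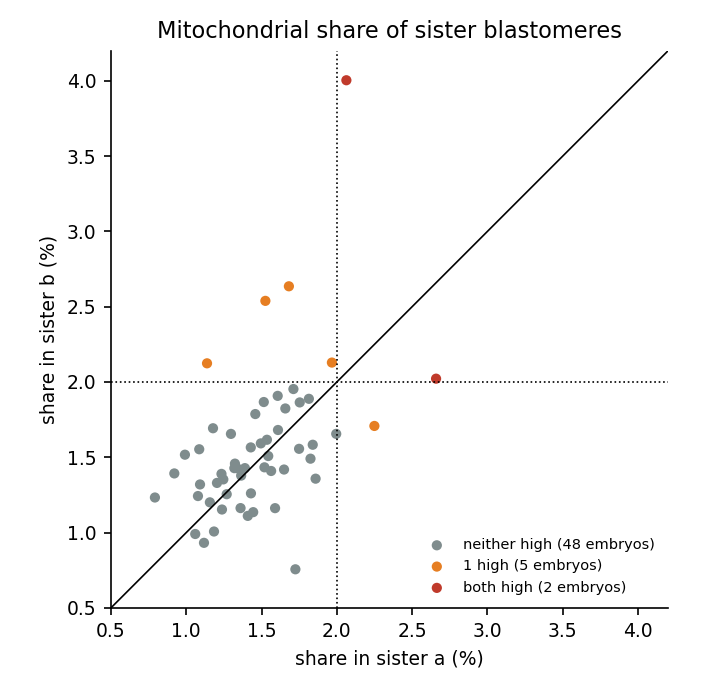
Share of counts in sister b (y axis, %) against sister a (x axis, %) for 55 embryos, with the line of equality and dotted lines at 2%. The 48 embryos with no high blastomere are grey, the 5 with 1 are orange and the 2 with both are red; the orange points lie away from the line except Co 9.

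Nuclear genes were compared between the classes with edgeR's quasi-likelihood test on counts of nuclear genes, with plate and ICSI site as covariates. Mitochondrial counts entered neither the library size nor the test. Of 13728 nuclear genes tested, 163 passed an adjusted p of 0.05 (1.19%), of which 70.6% were higher (0.838% of the genes tested) and 48 genes lower (0.35%) in high blastomeres. An unadjusted p under 0.05 was found for 1367 genes (9.96%), beside 7.21% of the unchanged genes when the test was tried on simulated counts. The higher genes were nearly all abundant and changed by small factors. All but 4 had a mean of 20 CPM or more, and the log2 fold changes of these abundant ones lay between 0.21 and 0.67, around a median of 0.37. The median log2 fold change of all genes tested was -0.08. Sisters entered as separate libraries. The genes called fell to 81 (48 higher, 33 lower) when sisters of 1 class were added together. With the embryo as a block in limma-voom they fell to 90 (87 higher, 3 lower), against 100 (94 higher, 6 lower) with limma-voom alone.

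Co 8b weighed heavily on these counts. Without it 64 genes passed (52 higher, 12 lower), of which 61 were among the 163. Of the abundant higher genes, 97 had their highest level among the high blastomeres in Co 8b, and in the named genes it often lay far above the other 10. Total and nuclear counts were lowest there, so its depth and its share moved together. With nuclear counts and genes counted as further covariates, 75 genes were higher and 85 lower, so that the higher genes made up 46.9% of the calls instead of 70.6%. Of the 163 genes, 75 kept their call there, 42 of them higher and 33 lower.

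Oocyte transcripts had the smallest p among the higher genes. Oosp1, which encodes an oocyte-secreted protein, was at 817 to 2263 CPM in the high class (median 1024) and 564 to 1068 CPM in the ordinary class (median 761). All 11 high blastomeres lay above the ordinary median, and 3 lay above the whole ordinary range. The log2 fold change of Oosp1 was 0.52 ± 0.07 (SE, adjusted p = 3.95e-08), and 0.39 without Co 8b. Omt2b, a small oocyte-specific gene (chromosome 9, 78327589 to 78329620 of GRCm38), was at 1624 to 4117 CPM (median 1786) against 895 to 2033 CPM (median 1287), with a log2 fold change of 0.58 ± 0.08 (adjusted p = 3.95e-08). Its neighbour and near relative Omt2a (chromosome 9, 78311972 to 78314796) had medians of 1884 and 1378 CPM and a log2 fold change of 0.55 ± 0.07 (adjusted p = 1.04e-07). Reads may be divided between these 2 copies, so their values are not independent of each other. Oosp3, next to Oosp1 on chromosome 19, had medians of 837 and 564 CPM and a log2 fold change of 0.51 ± 0.08. The related gene Oosp2, at a mean of 91.5 CPM, was not called (log2 fold change -0.04).

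The other leading genes had varied roles. Timm8b, a chaperone that escorts proteins through the space between the mitochondrial membranes, was at 319 to 938 CPM in high blastomeres (median 449) and 193 to 465 CPM in ordinary ones (median 302), a log2 fold change of 0.56 ± 0.09 (adjusted p = 4.93e-06). All 11 high blastomeres lay above the ordinary median. Cks2, a small partner of cyclin-dependent kinases needed for the meiotic divisions, had medians of 1282 and 863 CPM (log2 fold change 0.54 ± 0.09). Dut, which removes dUTP before it can enter DNA, had medians of 546 and 400 CPM (0.46 ± 0.07), and Snrpg, a core spliceosome protein, of 602 and 449 CPM (0.50 ± 0.08). Tiparp, an ADP-ribosyltransferase, rose by less, with medians of 2674 and 2177 CPM and a log2 fold change of 0.33 ± 0.05. Btg4, the adaptor that brings the deadenylase to maternal transcripts, had medians of 2049 and 1484 CPM (0.42 ± 0.07, adjusted p = 3.65e-05). In each of these genes the highest high blastomere was Co 8b, and the ranges of the classes overlapped.

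By size of change among genes of 20 CPM or more, Dppa5a led the higher genes. This pluripotency-associated RNA-binding protein had medians of 260 and 157 CPM and a log2 fold change of 0.67 ± 0.16 (adjusted p = 0.00814). Mzt1, a component of the microtubule-nucleating complex, followed with medians of 245 and 128.6 CPM (0.63 ± 0.17, adjusted p = 0.0383), and its adjusted p was 0.133 without Co 8b. The ribosomal protein gene Rpl37 had medians of 204 and 138 CPM (0.58 ± 0.12, adjusted p = 0.00107). With the embryo block, the adjusted p of Rpl37 was 0.081 and that of Mzt1 0.140.

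**Figure D3:**
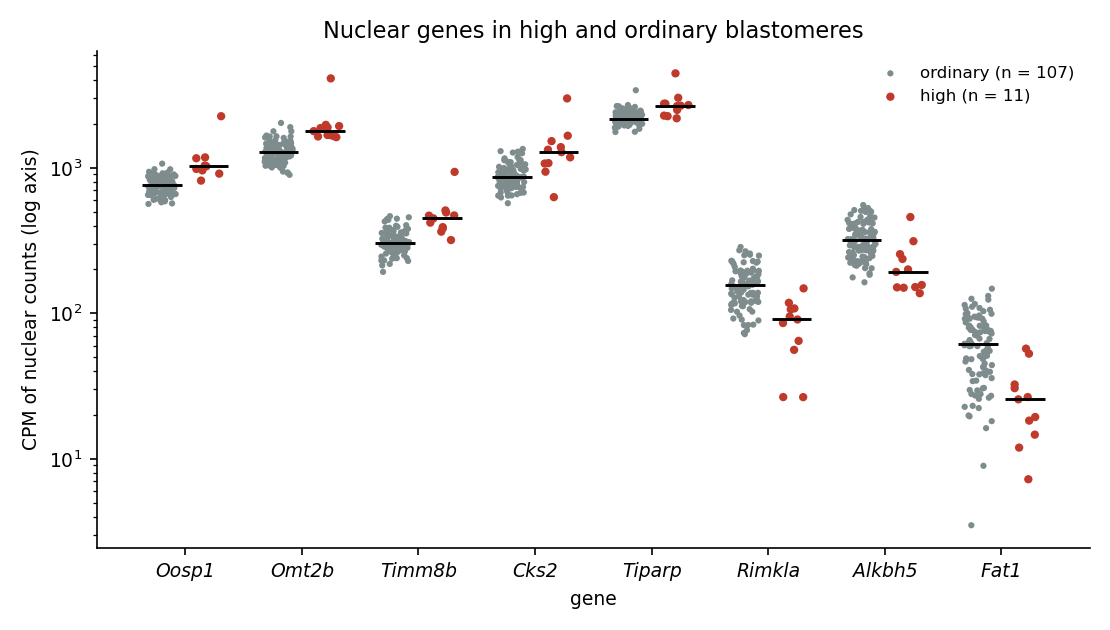
Level of 8 nuclear genes (x axis) in CPM of nuclear counts (y axis, log scale) in the ordinary (grey) and the 11 high (red) blastomeres, each point a library and each bar a class median. Oosp1, Omt2b, Timm8b, Cks2 and Tiparp have higher medians in the high class and Rimkla, Alkbh5 and Fat1 lower ones, with overlap in every gene.

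The lower genes of 20 CPM or more numbered 24, were less abundant than the higher ones and changed by larger factors. Rimkla, which ligates glutamate to acceptor molecules, was at 26.5 to 148 CPM in high blastomeres (median 90.7) and 71.8 to 286 CPM in ordinary ones (median 157). All 11 high blastomeres lay below the ordinary median, and the log2 fold change was -0.93 ± 0.17 (adjusted p = 1.10e-04). Alkbh5, an eraser of methylated adenosine in RNA, had medians of 193 and 317 CPM (-0.57 ± 0.12), and Dnajc7, a cochaperone of heat shock proteins, 53.1 and 92.9 CPM (-0.92 ± 0.21). Fat1, an atypical cadherin, had medians of 25.6 and 61.7 CPM (-1.25 ± 0.29, adjusted p = 0.00602). With the embryo block in limma-voom the adjusted p of these 4 genes lay between 0.104 for Dnajc7 and 0.288 for Fat1. Their calls thus did not hold there. Of the 48 lower calls, limma-voom kept 4 without the block and 2 with it, and edgeR with sisters of 1 class added kept 26.

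Further lower genes had diverse roles. The oogenesin gene Oog4 had medians of 86.2 and 126.03 CPM (log2 fold change -0.89 ± 0.21), the lipid phosphatase gene Lpin2 of 99.5 and 209 CPM (-0.84 ± 0.21), and the microtubule minus-end binder Camsap1 of 215 and 321 CPM (-0.56 ± 0.14). Rnmt, the enzyme that methylates the mRNA cap, had medians of 139 and 218 CPM (-0.52 ± 0.13, adjusted p = 0.0138) and kept its call with the block (adjusted p = 0.030), whereas Oog4 (0.088), Camsap1 (0.276) and Lpin2 (0.291) did not. Among called genes of 20 CPM or more, the largest falls were those of the endocytic kinase Aak1 (-1.71 ± 0.45), the signalosome subunit Cops7b (-1.63 ± 0.43), the mitochondrial ATP-magnesium/phosphate carrier Slc25a25 (-1.53 ± 0.42) and Srrt, a partner of the cap-binding complex (-1.41 ± 0.38). Their medians in high blastomeres were 7.97, 7.70, 10.8 and 23.9 CPM, and with the block their adjusted p lay between 0.127 and 0.521. Without Co 8b the adjusted p of Aak1, Slc25a25, Srrt, Lpin2 and Camsap1 lay between 0.059 and 0.098.

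The remaining calls rest on few counts. Of the 48 lower genes, 24 had a mean under 10 CPM, and 19 of these were at 0 in all 11 high blastomeres, while 25.2% to 71.03% of the ordinary blastomeres had a count. Cdk10, a cyclin-dependent kinase, was at 0 in the 11 high blastomeres and was counted in 52.3% of the ordinary ones, at up to 51.6 CPM. The 4 higher genes of low level had counts in a minority of libraries. Ang, which encodes angiogenin, was counted in 5 of 11 high (up to 34.8 CPM in Co 8a) and 16 ordinary blastomeres (14.95%). In simulated counts the same test made 17 false calls among unchanged genes, none of them in genes of 8 CPM or more, so these low-level calls are uncertain. Beside them it made 58 true calls, counted at 20 CPM or more. The libraries were simulated independently, without the likeness of sisters.

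Few nuclear genes of the respiratory chain passed the threshold. Over all genes tested 0.838% were higher. None of 37 tested genes of complex I, 14 of complexes II and III or 18 of complex V passed. Of 12 genes of complex IV, 2 were higher (16.7%), Cox8a with medians of 488 and 392 CPM (log2 fold change 0.40 ± 0.07, adjusted p = 9.69e-05) and Ndufa4 with 328 and 251 CPM (0.43 ± 0.12, adjusted p = 0.0481). Ndufa4 had an adjusted p of 0.145 without Co 8b. The median log2 fold change was -0.01 in complex I, 0.20 in complexes II and III, 0.28 in complex IV and 0.09 in complex V, beside -0.08 over all genes tested. The complex IV genes were also short and abundant, with a median exonic length of 1298 bases and a median level of 144 CPM, against 4159 bases and 23.3 CPM over all genes. With the percentage of counts in genes under 1 kb as a covariate, the complex IV median was 0.05 and 1 of its genes was called. Genes under 1 kb, such as Cox8a (619 bases), are themselves part of that percentage. Cytochrome c (Cycs) had medians of 196 and 142 CPM and an adjusted p of 0.0533.

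No gene for the copying or transcription of mitochondrial DNA passed the test. Of 16 tested, 5 had a positive log2 fold change (31.25%, beside 42.9% over all genes tested), and the median was -0.33. Their median level was low, at 14.9 CPM. The median log2 fold change was -0.34 without Co 8b and -0.20 with the percentage of counts in genes under 1 kb as a covariate. With the depth covariates it was -0.06, and against the own sister in the discordant embryos 0.11 over 11 genes. The direction thus depended on the comparison. Tfam, which packs the mitochondrial genome and starts its transcription, was at 0 to 13.7 CPM in high and 0 to 49.6 CPM in ordinary blastomeres, with a log2 fold change of -2.04 ± 1.06 (adjusted p = 0.521). The mitochondrial RNA polymerase Polrmt (-0.30 ± 0.74), the helicase Twnk (-0.45 ± 0.77) and the DNA polymerase Polg (0.03 ± 0.66) all had errors larger than their estimates. The transcription factor Tfb2m was measured more precisely, at a median of 183 CPM in both classes (0.13 ± 0.13).

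The genes that process or degrade mitochondrial RNA gave no call among 22 tested. Lrpprc and Slirp, which form the complex that stabilises mitochondrial mRNA, had log2 fold changes of 0.53 ± 0.70 and -0.59 ± 0.72, and the poly(A) polymerase Mtpap of -0.36 ± 0.26. Rexo2, an exonuclease that clears short RNA in the organelle, had medians of 242 and 181 CPM (0.36 ± 0.11, adjusted p = 0.0662), and Tbrg4, a mitochondrial RNA-binding protein, of 5.17 and 28.7 CPM (-1.53 ± 0.47, adjusted p = 0.0816). Of 77 mitochondrial ribosomal protein genes tested, 1 was higher (1.30%, near the 0.838% over all genes), namely Mrps14 (medians 377 and 255 CPM, 0.42 ± 0.12, adjusted p = 0.0496), and its adjusted p was 0.316 without Co 8b. The median of these 77 genes was 0.00. Of 20 import genes, Timm8b, described above, was the 1 called (5%). The inner-membrane channel protein Timm23 had medians of 521 and 422 CPM (adjusted p = 0.132), while the outer-membrane pore Tomm40 had medians of 9.28 and 28.1 CPM (adjusted p = 0.109).

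Genes for mitochondrial fusion, transport and removal (24 tested) and for the mitochondrial stress response (17 tested) gave no call, with medians of -0.13 and -0.17. The fusion protein gene Mfn1 had medians of 91.8 and 140 CPM (-0.45 ± 0.15, adjusted p = 0.104) and the transport adaptor Trak1 of 96.1 and 152 CPM (-0.51 ± 0.18, adjusted p = 0.135). The matrix chaperonin Hspe1 had medians of 208 and 166 CPM (0.30 ± 0.10, adjusted p = 0.0944). None of 16 tested p53 and apoptosis genes passed, with a median of -0.10. Casp9 was at 0 in 9 of 11 high and 47.7% of the ordinary blastomeres, and Mcl1 had medians of 137 and 125.2 CPM (0.31 ± 0.19).

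The maternal list held more calls than the list of activated genes, a difference that was not tested. Of 38 maternal oocyte genes tested, 6 were higher (15.8%) and none lower, beside 0.838% higher over all genes. Calls depended on level, with 8.23% higher among all genes of 200 CPM or more and 0.116% among those of 20 to 200 CPM. The median level was 193 CPM in the maternal list and 54.7 CPM in the activation list, so the lists are not matched in level. The 6 higher maternal genes included Oosp1, Omt2a, Btg4 and Dppa3, the last of which protects the maternal genome from demethylation (medians 1884 and 1450 CPM, 0.41 ± 0.09, adjusted p = 0.00216). Without Co 8b 3 of the list were higher, and Dppa3 had an adjusted p of 0.098. The median over the list was 0.04, and 24 of the 38 had a positive value (63.2%, beside 42.9% over all genes tested). None of 33 tested genes of the 2-cell activation wave passed, and their median was -0.17. With the depth covariates 3 maternal genes were higher, and the medians were -0.0002 in the maternal and 0.005 in the activation list. With the percentage of counts in genes under 1 kb as a covariate these medians were 0.06 and -0.28. Klf17, a transcription factor of this stage, had medians of 237 and 318 CPM (-0.37 ± 0.13, adjusted p = 0.137). Of 83 cytosolic ribosomal protein genes, 2 were higher, Rpl37 and Rps27l (medians 720 and 502 CPM, 0.55 ± 0.10, adjusted p = 4.74e-05), 71 had a positive log2 fold change, and the median was 0.18. The median of the ribosomal protein genes was 0.14 with the depth covariates and 0.07 with the percentage of counts in genes under 1 kb as a covariate, where 0 of them were called. Rps27l (816 bases) is itself part of that percentage. None of 8 tested cumulus and granulosa markers was called, nor the sperm transcript Prm2 (adjusted p = 0.970).

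Within embryos, the 5 high blastomeres with an ordinary sister were compared with that sister in a fit with the embryo as a term, so that ICSI site, plate and parents were shared within each pair. Of 8696 genes tested by edgeR, 0 passed (0%), and 414 had an unadjusted p under 0.05 (4.76%), while DESeq2 called 49 higher and 27 lower. The fit was weak, since it recovered 7.5% of 2-fold changes in simulated counts, so the absence of calls does not show that the sisters were alike. The samples are shared with the comparison above, and the values stand side by side rather than as a second test. Dppa3 was higher in the high sister in 5 of 5 embryos, by 0.24 to 0.55 on the log2 scale with 1 CPM added, and its fitted log2 fold change was 0.43 (unadjusted p = 1.82e-04, adjusted p = 0.964). Omt2b was higher in 5 of 5 (0.37), as were Omt2a (0.39), Oosp1 (0.37), Oosp3 (0.55), Cks2 (0.43), Timm8b (0.40) and Btg4 (0.35), none of which passed. Of other genes called higher between the classes, Tiparp, Dut, Rps27l, Ndufa4 and Mrps14 were also higher in 5 of 5. Snrpg, Dppa5a, Rpl37 and Cox8a were higher in 4 of 5, Ang in 3 of 5 and Mzt1 in 2 of 5. Genes not called between the classes, such as Ndufb6, Cycs, Uqcrq, Cox7a2, Atp5g1, Rexo2 and Hspe1, were higher in 5 of 5 as well. The share of all genes with this pattern was not taken, so it is not particular to the oocyte genes. Cops7b was lower in the high sister in 5 of 5 (-2.51), and Rimkla was higher in 1 of 5 (-0.86). Oog4 and Fat1, called lower between the classes, were each higher in the high sister in 2 of 5. Of the lists, complex IV had a median of 0.40 over 12 genes, complex I 0.19 over 31, the maternal genes 0.17 over 37 and the 2-cell activation genes 0.21 over 25, beside -0.01 over all genes. The activation genes thus had a median of the opposite sign to that between the classes (-0.17).

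The called genes differed in length from the rest. The rule did not use the length of nuclear genes, but the 13 genes that set the classes are themselves short. They run from 204 bases (mt-Atp8) to 1824 bases (mt-Nd5), against a median of 4159 bases over all nuclear genes tested. Length is therefore not a feature apart from the rule. Exonic length, the union of a gene's exons in GENCODE M21, had a median of 2420 bases in the higher genes, 6626 bases in the 24 lower genes of 20 CPM or more, and 4669 bases in all tested genes of that level. Among the 1263 genes of 200 CPM or more, 13 of 23 under 1 kb were higher (56.5%), 30 of 130 from 1 to 2 kb (23.1%), 30 of 281 from 2 to 4 kb (10.7%) and 31 of 829 of 4 kb or more (3.74%), beside 8.23% over all genes of that level. The medians of the log2 fold change in these bins fell with length, from 0.40 to 0.21, 0.10 and -0.01. Without Co 8b they were 0.28, 0.18, 0.09 and -0.01, and within embryos 0.32, 0.27, 0.14 and -0.01. Genes of 20 to 200 CPM showed the same order at a lower level, from 0.10 under 1 kb to -0.13 at 4 kb or more. These are descriptions across genes, which are not independent replicates.

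**Figure D4:**
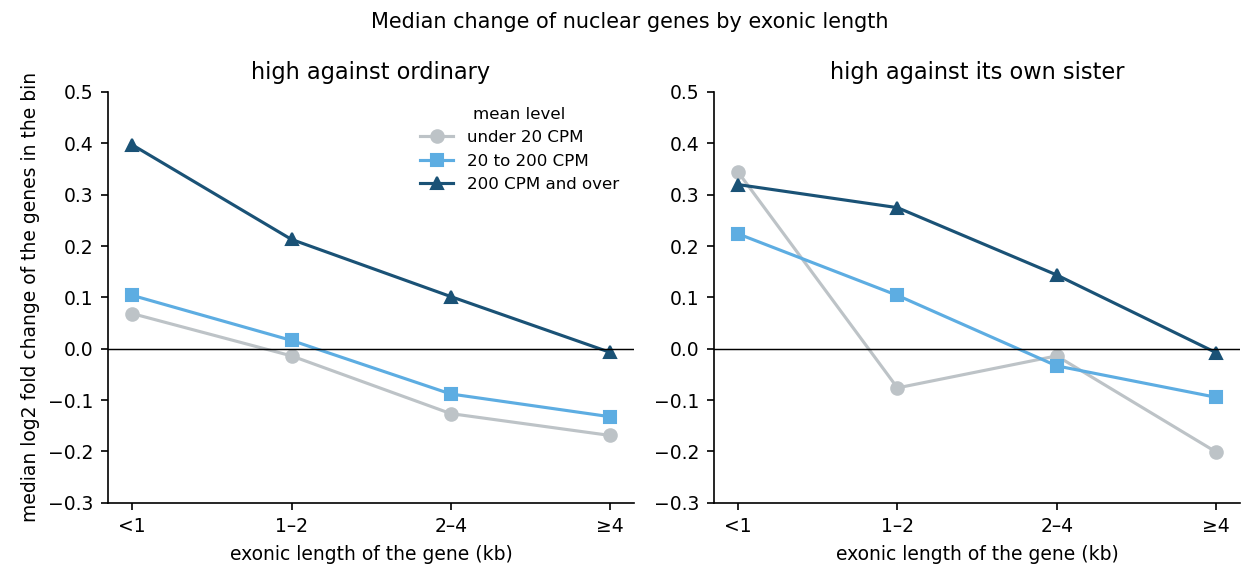
Median log2 fold change of nuclear genes (y axis) by exonic length in kb (x axis) at 3 mean levels, for high against ordinary blastomeres (left) and for high blastomeres against their own sisters in 5 embryos (right). At 200 CPM and over the medians fall from 0.40 under 1 kb to -0.01 at 4 kb and over on the left, and from 0.32 to -0.01 on the right.

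Library by library, the share of nuclear counts in genes under 1 kb moved with the mitochondrial share. It was 2.15% in Is 27b, the lowest of the high class, 4.58% in Co 8b, the highest, and 3.56% at the median, against 1.93% to 4.12% with a median of 2.77% in ordinary blastomeres. Of the 11 high blastomeres, 10 lay above the ordinary median and 1 above the whole ordinary range. In the 5 discordant embryos the high sister had the larger value each time, by 0.107 (Co 52) to 0.747 percentage points (Co 50). Over all the libraries kept Pearson's r was 0.707 and Spearman's rho 0.681, and over the ordinary ones alone 0.674 and 0.673; without the 2 libraries of most extreme share they were 0.654 and 0.664. These coefficients are descriptions over libraries that include sisters, and both quantities come from the same counts, although the short genes were taken as a share of nuclear counts only. With this percentage as a further covariate, chosen after the data were seen, 52 nuclear genes passed (41 higher, 11 lower), and 34 of the 163 kept their call. Oosp1, Omt2a, Omt2b, Dut, Tiparp, Timm8b, Snrpg, Cox8a and Btg4 kept it, whereas Cks2 (adjusted p = 0.163), Oosp3 (0.093), Rps27l (0.108), Dppa3 (0.793) and Mrps14 (0.955) did not. A gene under 1 kb is itself part of this percentage, so a loss of its call there is partly built in. Cks2 (692 bases), Oosp3 (823), Rps27l (816) and Dppa3 (892) are such genes, as are Oosp1 (972), Timm8b (518) and Cox8a (619), which kept the call. Adding the depth covariates as well left 15 genes (12 higher, 3 lower).

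**Figure D5:**
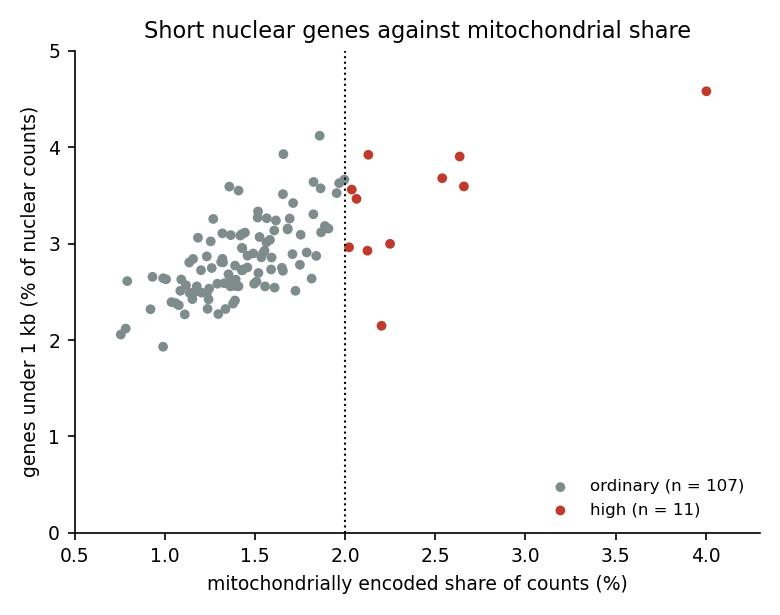
Percent of nuclear counts in genes with an exonic length under 1 kb (y axis) against the mitochondrially encoded share of counts (x axis, %) in the ordinary (grey) and the 11 high (red) blastomeres, with the 2% limit dotted. The points rise together on both sides of the limit, Co 8b is highest on both axes, and Is 27b lies below the other high blastomeres.

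The share was also taken as a gradient instead of 2 classes. Among the ordinary blastomeres alone, 670 genes rose and 570 fell per doubling of the share, of 7209 tested by edgeR with plate and site. Sisters entered this fit as separate libraries with no embryo term, although their shares went together, so its p-values are likely too small. No depth or short-gene covariate was added to it. In this fit Omt2a changed by 0.57 on the log2 scale per doubling (adjusted p = 9.96e-12), Omt2b by 0.55 and Oosp3 by 0.55. Rps27l changed by 0.75 (adjusted p = 4.63e-14) and Cks2 by 0.60 (adjusted p = 3.75e-11). Of the lower genes, Camsap1 fell by 0.60 (adjusted p = 1.13e-04) and Alkbh5 by 0.46 (adjusted p = 0.00259), whereas Rnmt changed by 0.26 in the other direction (adjusted p = 0.159) and Dnajc7 by -0.03 (adjusted p = 0.942). Genes that moved with the share were thus also found among blastomeres below the limit.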

How the data were processed

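Single blastomeres were lysed and converted to full-length cDNA with a SMART-Seq kit, and Nextera XT libraries were sequenced. Per the labels and the study's methods, the authors trimmed reads with Trimmomatic, checked them with FastQC 0.12.1 and aligned them without strand with STAR 2.7.10b to GRCm38. What they deposited are raw whole-number counts of 32285 genes, one table for blastomeres and one for blastocysts. The deposited table equals the matrix in which reads of the same start and end are counted once, in all 4035625 entries for blastomeres. No molecular identifiers exist, so counts of short, abundant transcripts are bounded by their distinct positions (highest count 6130), and p-values measure the spread between libraries. Of the 10 genes of highest count 4 were mitochondrially encoded, so the bound concerns the share as well, and its effect was not tested. The study sequenced blastomeres in a paired-end and a single-end set and trimmed the former to first reads of the same length.

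Depth was 360474 to 2100560 counts per kept blastomere. ICSI site, embryo, sister and plate came from the labels; the classes came from the counts. The members and gene lists were chosen with earlier results of these data known. Nuclear genes were tested with edgeR 4.0.16 (R 4.3.3; filterByExpr, TMM, robust quasi-likelihood, Benjamini-Hochberg, threshold 0.05); DESeq2 1.42.0 and limma 3.58.1 served as alternatives. Correlations used 100000 resamples. The test was tried on simulated counts: in the comparison of high and ordinary blastomeres (13728 genes) 29% of 200 genes changed 2-fold were recovered. Named genes were the mitochondrial genes, the 10 genes of smallest p and the 5 of largest change at 20 CPM or more in each direction, up to 4 of smallest p in each of 16 lists of nuclear genes, and 8 genes of mitochondrial transcription; predicted genes were counted only, and 1 gene that the rule names is not reported here. Exonic lengths covered 32235 genes. Embryo was a term in the fit of sisters and a block (consensus correlation 0.131) in limma-voom.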

Additional observations from a re-analysis of the deposited data

Results flagged for a closer look

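Among the 8 contralateral high blastomeres, Co 8b lay far from the others in its mitochondrial share, 4.00%, where its gap to the next value was 0.679 of the whole range (a gap above 0.526 is taken as far). The same blastomere was set apart in 12 nuclear genes, with 2263 CPM of Oosp1, 4117 of Omt2b, 3846 of Omt2a, 938 of Timm8b, 4459 of Tiparp, 1259 of Snrpg, 1841 of Oosp3, 2999 of Cks2, 752 of Cox8a, 1769 of Rps27l, 4064 of Btg4 and 4072 of Dppa3. Co 52a was set apart in Fat1, at 57.1 CPM. Chance alone sets about 1 in 20 such groups apart where they are independent, and 44 groups of values were examined. These groups were not independent, since they hold the same libraries. Many of their genes were named from a fit that included Co 8b, and the share set the class. The number set apart can therefore not be compared with that rate. Co 8b had the lowest number of nuclear counts of the class, and the part of its depth in these values was not tested.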

How the results depend on the processing

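The count of 163 genes between high and ordinary blastomeres moved with several choices, and the cause of each move was not tested. DESeq2 called 301, no filter on low counts 1291, no terms for plate and site 252, a limit of 1.8% 335, and the log2 share as a gradient 1244 over all and 1240 over the ordinary blastomeres. Plate 1 alone gave 97, all blastomeres without the gene minimum 79, sisters added 81, limma-voom 100 and limma-voom with the embryo block 90. Without both blastomeres of Co 8 there were 67, with the short-gene covariate 52 and with the depth covariates as well 15. Leaving out each high blastomere in turn gave 64 (without Co 8b) to 210 (without Is 27b). Totals lay between 155 and 213 with RLE factors, mitochondrial counts in the library size, depth covariates and embryos with both sisters alone. A limit of 2.5%, bias-adjusted deviances and a mean of 20 CPM or more also gave totals in that range. Similar totals did not mean the same genes. RLE factors and mitochondrial counts in the library size kept all 163 calls, but depth covariates kept 75. Of the 48 lower calls, 8 were kept at the limit of 2.5%, 16 with both sisters alone and 17 with bias-adjusted deviances. The limit of 2.5% left 4 high blastomeres, Co 8b among them. Contralateral blastomeres alone gave 103 higher and 12 lower. Between sisters, RLE factors, no filter and leaving out each embryo gave 0 genes by edgeR, against 76 by DESeq2. The order of the sister relation held in each alternative (rho 0.438 to 0.524). Of 33 named called genes, 24 kept their call without Co 8b, 25 with depth covariates and 16 with the short-gene covariate. With limma-voom 17 kept it without the block and 15 with the block. Omt2a kept it in every alternative. Signs turned for Ang at the limit of 2.5% (-4.32), for Rnmt (0.26) and Cops7b (0.14) in the gradient over ordinary blastomeres, and for Mrps14 (-0.0030) and Dppa3 (-0.0047) with both covariates. With 11 high libraries of 439326 to 1559620 counts, 29% of 2-fold changes were recovered in simulated counts.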

Other observations

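A family of neighbouring genes stood among the higher genes and was picked out after its values were seen. Of 6 genes of the Tcl1 family tested, which lie together on chromosome 12 and are transcribed in oocytes and early embryos, 5 were higher in high blastomeres (Tcl1, Tcl1b1, Tcl1b2, Tcl1b3 and Tcl1b4), and the sixth, Tcl1b5, did not pass. Over all genes tested 0.838% were higher, and over genes of 200 CPM or more, where all 6 lie, 8.23%. The log2 fold changes of the 6 lay between 0.26 and 0.38 and their mean levels between 399 and 1571 CPM. Without Co 8b 3 of the 6 passed. The copies are similar in sequence, so reads may be divided among them. Of 7 Obox homeobox genes tested, at levels of 48.6 to 1250 CPM, Obox5 was higher.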
